A study of Mus musculus with 20 samples.

Results

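The nuclear-encoded subunits of the mitochondrial respiratory chain were followed in retinas of Nrl-/- mice at 5 ages. They were taken as the genes whose symbol begins with Ndufa, Ndufb, Ndufc, Ndufs, Ndufv, Uqcr, Cox4, Cox5, Cox6, Cox7, Cox8 or Atp5. Sdha, Sdhb, Sdhc and Sdhd were added, and the Ndufaf assembly factors were left out. This rule, applied to the symbol on the array or its current form, gave 63 of the 15800 genes named on the array. By the symbol on the array 61 met it. By current symbol only, 2 met it: Uqcr10 (listed as 1110020P15Rik) and Atp5mpl (listed as 2010107E04Rik). Of these, 60 encode subunits: 29 of complex I, 4 of complex II, 5 of complex III, 11 of complex IV and 11 of complex V (ATP synthase). The other 3 met the rule only through an old symbol and are not subunits: Emc8 (listed as Cox4nb), Dmac2l (listed as Atp5s) and Dmac2 (listed as Atp5sl). The members were measured by 365 probe sets, with a median of 5 per gene, and 7 members had 1 probe set. The RefSeq gene table of GRCm38.p6 holds 88 protein-coding genes that fit the rule, of which 60 are members here. The others, among them Cox5b, Cox7a1, Cox7a2l, Cox8a and Ndufa4, are not analysed here.

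All mice were Nrl-/- on the C57Bl/6J strain and differed in age: 1, 2, 4, 6 or 10 months, with 4 mice per age and both retinas of a mouse as 1 sample. Nrl is the gene of a transcription factor needed for rod photoreceptors to form, and retinas that lack it hold cone-like photoreceptors in place of rods. No wild-type retina was measured, so every difference is between ages of the mutant. Total retinal RNA, depleted of ribosomal RNA, was hybridised to Affymetrix exon arrays, and the deposited log2 values were summarised here to 1 level per gene and array.

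Nrl itself lay between 5.93 and 6.54 in all 20 arrays on the log2 scale, where 5.61 was the limit below which genes were not tested. That level is no check on the knockout, because the sources used here do not say which of the 6 Nrl probe sets fall within the deletion. The cone genes Opn1sw (13.49 to 13.77) and Arr3 (11.77 to 12.50) were bright in every array. The mean of 13 cone genes lay between 11.41 and 11.48 at 10 months and between 11.61 and 11.83 at the earlier ages. Of the 8 Muller glia genes, 8 were called higher at 10 months than at 1 month (20.5% of all genes). The mean of 10 retinal pigment epithelium genes was 8.32, 6.65, 7.61 and 7.98 in the 4 arrays of 10 months, against 6.68 to 7.33 before. The mean of 10 lens genes was 6.22 to 6.85 at 1 month and 5.27 to 6.58 later. The mean of the Y-linked genes Eif2s3y and Kdm5d was 4.01 to 4.43 in 6 arrays, namely every 2 month array and the 10 month replicates 2 and 3, and 7.33 to 8.27 in the others. The part of these differences in the results for the respiratory chain was not tested beyond the values given beside them. In whole retina, fewer cells of a type and less RNA per cell cannot be told apart. Of 18 skeletal and heart muscle genes, 15 were on the array and 7 lay above the limit for testing. The mean of the 15 was 5.15 to 5.72 per array, near the limit of 5.61. Its part in the levels of the muscle forms of complex IV subunits below was not tested.

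The respiratory chain passes electrons from NADH (through complex I) and from succinate (through complex II) to coenzyme Q, complex III, cytochrome c and complex IV, which reduces oxygen. Complexes I, III and IV pump protons across the inner mitochondrial membrane, and complex V uses the return of those protons to make ATP. Photoreceptors pack mitochondria into the ellipsoid of the inner segment and use much of the ATP for ion pumping, and cones are especially rich in mitochondria. Most subunits are encoded in the nucleus, and their promoters are known targets of the factors NRF1, GABP (an ETS factor) and CREB.

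The promoters of the 4 subunits that differed over the ages are shown because these genes lie in 3 complexes and took different courses, described below. Each sequence is the 250 bases before the annotated start, from RefSeq on GRCm38.p6, written 5′ to 3′ on the strand of the gene, which is the minus strand for each. Capitals mark matches, on either strand, to TGACGTCA (CREB), GCGCA and GCGC with any 1 base between them (NRF1), CCGGAAG (ETS) or GGGCGG (SP1). The regions are chr13:30545317-30545566 for Uqcrfs1, chr2:36049339-36049588 for Ndufa8, chr2:174464102-174464351 for Atp5e and chr3:105959264-105959513 for Atp5pb.
Uqcrfs1: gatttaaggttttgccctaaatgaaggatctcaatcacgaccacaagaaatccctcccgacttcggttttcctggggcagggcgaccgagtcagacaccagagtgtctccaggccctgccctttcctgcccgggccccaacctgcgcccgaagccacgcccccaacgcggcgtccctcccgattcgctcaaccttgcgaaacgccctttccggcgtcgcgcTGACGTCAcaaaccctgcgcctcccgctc
Ndufa8: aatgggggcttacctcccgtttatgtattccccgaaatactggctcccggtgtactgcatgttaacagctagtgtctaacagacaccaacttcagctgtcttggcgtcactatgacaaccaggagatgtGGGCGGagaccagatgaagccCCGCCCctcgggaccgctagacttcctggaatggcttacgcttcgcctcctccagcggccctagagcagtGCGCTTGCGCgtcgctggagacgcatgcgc
Atp5e: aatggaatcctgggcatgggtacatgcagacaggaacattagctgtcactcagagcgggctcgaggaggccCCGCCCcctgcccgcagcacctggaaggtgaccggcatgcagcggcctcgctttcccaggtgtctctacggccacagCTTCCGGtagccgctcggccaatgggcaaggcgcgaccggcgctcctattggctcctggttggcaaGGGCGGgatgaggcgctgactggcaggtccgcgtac
Atp5pb: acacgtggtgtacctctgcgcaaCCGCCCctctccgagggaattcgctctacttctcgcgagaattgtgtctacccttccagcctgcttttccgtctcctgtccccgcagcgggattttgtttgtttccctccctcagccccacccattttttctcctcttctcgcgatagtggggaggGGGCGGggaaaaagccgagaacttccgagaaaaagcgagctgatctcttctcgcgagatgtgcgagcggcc
The Uqcrfs1 promoter held the CREB letters 29 to 22 bases before the start, the Ndufa8 promoter an NRF1 match 30 to 21 bases before it, and the Atp5e promoter an ETS match 102 to 96 bases before it. A promoter entry was found for 50 of the 63 members. The NRF1 motif stood in 7 of these 50 (14%), against 6.04% of 12609 genes on the array with an entry, and the CREB motif in 4 (8%), against 2.11%. The ETS motif stood in 5 (10.0%, against 9.97%), the SP1 motif in 20 (40.0%, against 48.4%) and the YY1 motif AAGATGGC in 0 (against 1.61%). Such matches are a description of these letters in this window only.

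Over the 5 ages, few respiratory chain genes changed in a retina where many other genes did. Of the 63 members, 61 were bright enough to test, and Cox7b2 (a testis form of a complex IV subunit) and Ndufa7 were not. In limma's F test over the 5 ages, 6 of the 61 (9.84%) passed an adjusted p of 0.05, against 38.4% of all 11850 genes tested. They were the complex III iron-sulfur protein gene Uqcrfs1, the complex I gene Ndufa8, the ATP synthase genes Atp5e and Atp5pb, and the non-subunits Emc8 and Dmac2l. Of the 58 subunits alone, 4 passed. The call was lost in 20 of 30 alternatives for Uqcrfs1, 12 of 30 for Atp5pb, 9 of 29 for Dmac2l, 6 of 30 for Atp5e and 3 of 30 for Ndufa8, and in none of 30 for Emc8. Without 2 months replicate 4, for example, the adjusted p of Atp5pb in limma's F test was 0.158.

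Comparisons of single ages with 1 month gave few calls as well. Against 1 month, 1 member was called at 2 months (8.51% of all genes), 3 at 4 months (15.1%), 4 at 6 months (16.4%) and 13 at 10 months (41.3%). At 10 months, 10 of the 13 were higher (20.5% of all genes) and 3 lower (20.7%), which is 21.3% of the 61 members. Against 4 months, 1 member was called at 10 months (21.7% of all genes), and against 6 months 1 member (20.4%), in both cases Emc8, so that 0 of 58 subunits were called. Those counts of 0 come from limma, and 4 subunits had an unadjusted p under 0.05 in each of these comparisons. Between 2 and 4 months 0 members were called (0.118% of all genes) and between 4 and 6 months 0 (0% of all genes), and in each of these comparisons 2 members had an unadjusted p under 0.05. The share called was below that of all genes in the main setting and every alternative run for the F test and for 4 against 1, 10 against 4 and 10 against 1 month.

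**Figure D1:**
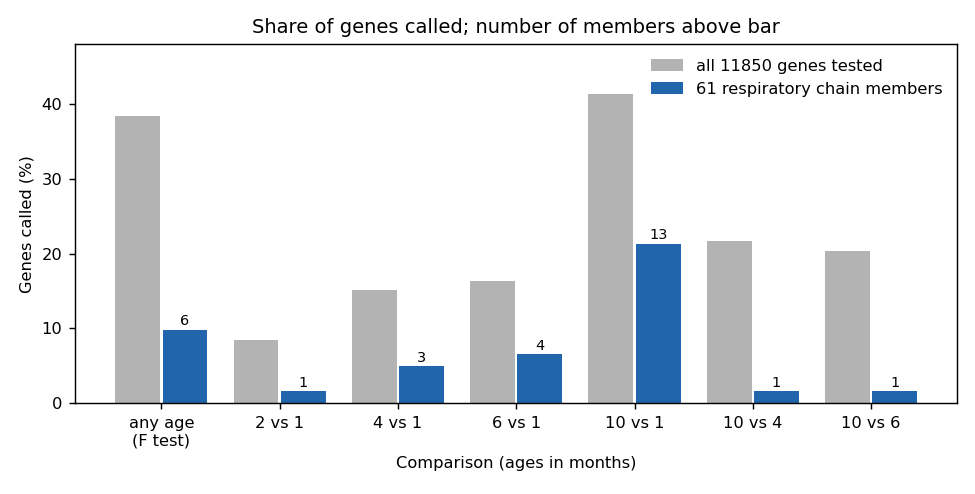
Share of genes called at an adjusted p under 0.05 (vertical axis, percent) in the F test and in 6 comparisons of ages (horizontal axis, months), for all 11850 genes tested (grey) and the 61 tested members (blue, with the number called above the bar). The blue bar is the lower one each time, with 13 members at its highest in 10 against 1 month.

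The differences were also small in size. No member had an estimated difference of 1.5-fold or more in any of the 8 comparisons, whereas 5.80% of all genes did in 10 against 1 month. The median size of the difference in that comparison was 0.10 for the members and 0.19 for all genes, on the log2 scale. In 4 against 1 month it was 0.09 for the members and 0.11 for all genes. The members had the larger median in 2 against 1 month (0.12 against 0.09) and in 6 against 1 month (0.12 against 0.11). In 10 against 1 month the 95% interval of the difference lay wholly within 1.5-fold for 54 of 61 members (88.5%), against 80.6% of all genes. The 7 with a wider reach were Atp5j2, Cox7a2, Dmac2l, Emc8, Ndufa5, Uqcr10 and Uqcrfs1. For 4 against 1 month the interval lay within 1.5-fold for 58 of 61 members (95.1%, against 90.9% of all genes). For 2 against 1 month it did so for 57 of 61 members (93.4%, against 93.4% of all genes). The spread between mice of an age was alike, with a median residual SD of 0.12 for the members and 0.12 for all genes. The span between the highest and lowest age mean had a median of 0.20 for the members and 0.26 for all genes.

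Taken by complex, the medians at 10 months lay near the 1 month level except for complex II. Relative to 1 month, the median log2 difference of the 28 tested complex I genes was 0.10 at 2 months, 0.02 at 4, 0.10 at 6 and 0.04 at 10 months. For the 4 complex II genes it was 0.08, 0.09, 0.14 and 0.21 at the same ages. For the 5 complex III genes it was 0.09, 0.00, 0.04 and 0.01. Complexes IV and V moved within the same narrow band. For the 10 tested complex IV genes the median was 0.07, 0.02, 0.02 and 0.08, and for the 11 complex V genes it was 0.13, 0.03, 0.05 and 0.08. Over all genes the median was 0.01 at 2, 4 and 6 months and 0.04 at 10 months. Estimates above the 1 month level were found for 47 of 58 subunits at 2 months, 36 at 4, 46 at 6 and 38 at 10 months. These 4 comparisons share the 1 month arrays, so the counts are not independent of each other. Genes are not replicates in them, because the subunits of an array can shift together. The mean of the 58 subunits was 0.091, 0.035, -0.053 and -0.073 in the 1 month arrays, relative to the 1 month level. The age means of this value were 0.098, 0.049, 0.090 and 0.063 at 2, 4, 6 and 10 months. The share of all genes above the 1 month level was not computed. All arrays of 2 months are low in Y-linked genes and all of 1 month are high. In the count at 2 months, age and this difference cannot be told apart. The mean of 10 microglia and macrophage genes was 7.06 to 7.16 at 1 month, 7.41 to 7.59 at 2 months, 7.30 to 7.38 at 4, 7.16 to 7.32 at 6 and 6.98 to 7.13 at 10 months, and its part in these counts was not tested.

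**Figure D2:**
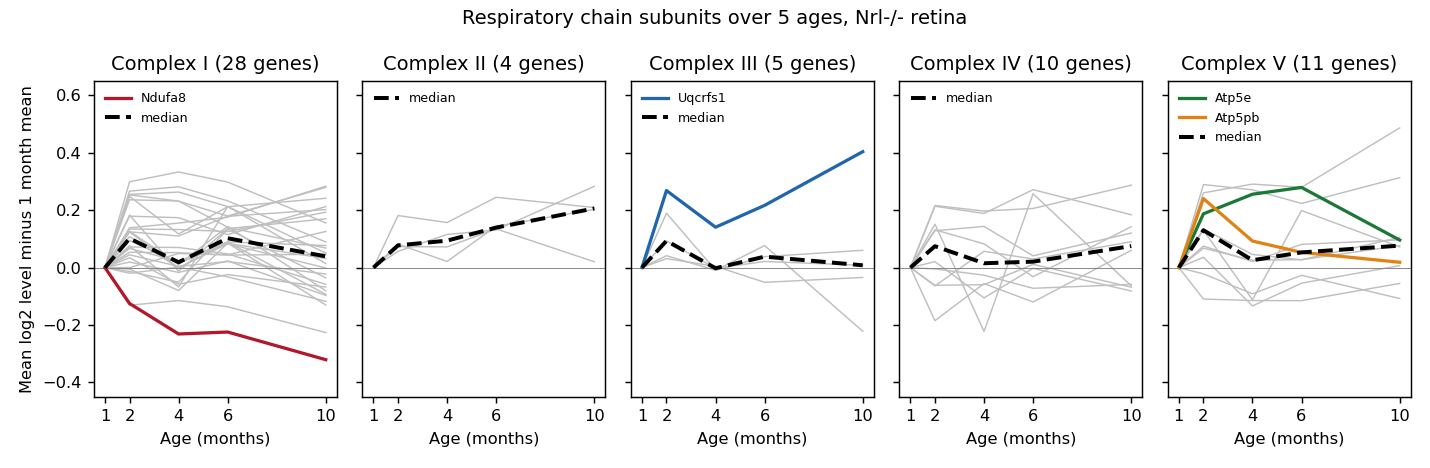
Mean log2 level at each age minus the 1 month mean (vertical axis) against age in months (horizontal axis) for the tested subunits of complexes I to V, 1 grey line per gene, with the 4 subunits that passed the F test in colour and the median dashed. Most lines stay within a narrow band around 0, while Uqcrfs1 ends at 0.40 and Ndufa8 at -0.32.

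Complex I oxidises NADH and is the largest of the complexes. Of its 28 tested genes, 5 were called in 10 against 1 month (17.9%, against 41.3% of all genes): Ndufa8 and Ndufs7 fell, and Ndufa11, Ndufa13 and Ndufb7 rose. Ndufa8, an accessory subunit on the intermembrane-space side, had log2 levels of 10.02, 10.01, 9.91 and 9.97 at 1 month and 9.70, 9.56, 9.81 and 9.55 at 10 months. It measured 9.98, 9.82, 9.87 and 9.73 at 2 months, 9.94, 9.69, 9.57 and 9.78 at 4 months and 9.83, 9.72, 9.66 and 9.80 at 6 months. The 10 month arrays all lay below the 1 month arrays, with the middle ages between the end means. The log2 difference was -0.32 ± 0.08 (SE, n = 4 per age, limma adjusted p = 0.0026), or -0.29 with the brightest probe set, which ended the call (0.0592), and the fall was called already at 4 months (-0.23 ± 0.08, limma adjusted p = 0.0496). The call at 4 months was lost in 11 of 18 alternatives, among them the fits without any 1 of 7 of the 8 arrays, with differences of -0.25 to -0.17 and limma adjusted p of up to 0.161 in these fits. All 5 Ndufa8 probe sets were lower at 10 months than at 1 month, by log2 values of -0.63 to -0.21. Over the 5 ages the adjusted p was 0.0208 in limma's F test, and it was 0.230 with the brightest probe set, 0.0574 without 1 month replicate 1 and 0.0582 without 1 month replicate 2.

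Ndufs7, which carries the last iron-sulfur cluster before coenzyme Q, measured 10.06, 10.14, 10.10 and 10.07 at 1 month and 9.67, 9.88, 10.00 and 9.91 at 10 months. The groups did not overlap, and the lowest value was that of replicate 1 of 10 months. The log2 difference was -0.23 ± 0.08 (SE, n = 4 per age, limma adjusted p = 0.0259). Without 10 months replicate 1 it was -0.16 (limma adjusted p = 0.105), without 1 month replicate 2 it was -0.21 (limma adjusted p = 0.0656), and with the brightest probe set it was -0.25 (0.0589). The 3 accessory subunit genes that rose, chosen after their values were seen, had overlapping groups. Their log2 differences were 0.28 ± 0.10 for Ndufa11 (limma adjusted p = 0.0290, n = 4 per age), 0.19 ± 0.07 for Ndufa13 (0.0263) and 0.21 ± 0.08 for Ndufb7 (0.0483). Ndufs1 and Ndufv1, which like Ndufs7 belong to the catalytic core, gave smaller differences. For Ndufs1, the largest iron-sulfur subunit, the difference was -0.02 (95% interval -0.17 to 0.13). For Ndufv1, the flavoprotein that accepts electrons from NADH, the difference was -0.10 (-0.23 to 0.04).

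Complex II, succinate dehydrogenase, joins the citric acid cycle to the chain and has 4 subunits, all encoded in the nucleus. In 10 against 1 month, where 20.5% of all genes were called higher, 3 of the 4 rose: Sdhb, the iron-sulfur subunit, and Sdhc and Sdhd, the membrane anchors. Sdhd measured 7.95, 8.12, 7.96 and 8.03 at 1 month and 8.37, 8.25, 8.44 and 8.14 at 10 months. Each 10 month array lay above each 1 month array. The log2 difference was 0.28 ± 0.08 (SE, n = 4 per age, limma adjusted p = 0.0116).

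Sdhc measured 9.43, 9.30, 9.22 and 9.03 at 1 month and 9.33, 9.53, 9.51 and 9.45 at 10 months, and Sdhb 8.57, 8.42, 8.16 and 8.20 against 8.56, 8.50, 8.60 and 8.50. In both genes the groups overlapped, because replicate 1 of 1 month was high. The log2 difference was 0.21 ± 0.08 for Sdhc (limma adjusted p = 0.0345, n = 4 per age) and 0.20 ± 0.08 for Sdhb (0.0436). Sdhc was also called at 6 months, by 0.24 ± 0.08 (limma adjusted p = 0.0342). Sdha, the flavoprotein that oxidises succinate, differed by 0.02 (95% interval -0.08 to 0.12). Its levels lay between 10.87 and 11.15 in all 20 arrays, and the groups of 1 and 10 months overlapped.

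The calls in complex II were close to the threshold. The Sdhc call was lost without each of the 1 month replicates 3 and 4 and the 10 month replicates 2, 3 and 4, with differences of 0.14 to 0.21. With the mean of the probe sets the Sdhc difference was 0.12 (limma adjusted p = 0.375). The Sdhb call was lost without each of the same 5 arrays and without 10 months replicate 1. With the brightest probe set per gene all 3 calls were lost, at 0.19 for Sdhd (limma adjusted p = 0.114), 0.16 for Sdhc (0.176) and 0.22 for Sdhb (0.216). Those of Sdhc and Sdhb were also lost with no filter on dim genes and with only the 8 arrays of both ages. Without 1 month replicate 4 the differences were 0.14 for Sdhc (limma adjusted p = 0.142) and 0.16 for Sdhb (0.142). Without the arrays low in Y-linked genes, which leaves 2 arrays of 10 months, the differences were 0.24 for Sdhd (0.128), 0.15 for Sdhc (0.296) and 0.19 for Sdhb (0.208). Over the 5 ages 0 of the 4 passed limma's F test, with 2 at an unadjusted p under 0.05 (adjusted p = 0.0870 for Sdhd and 0.0926 for Sdhc).

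**Figure D3:**
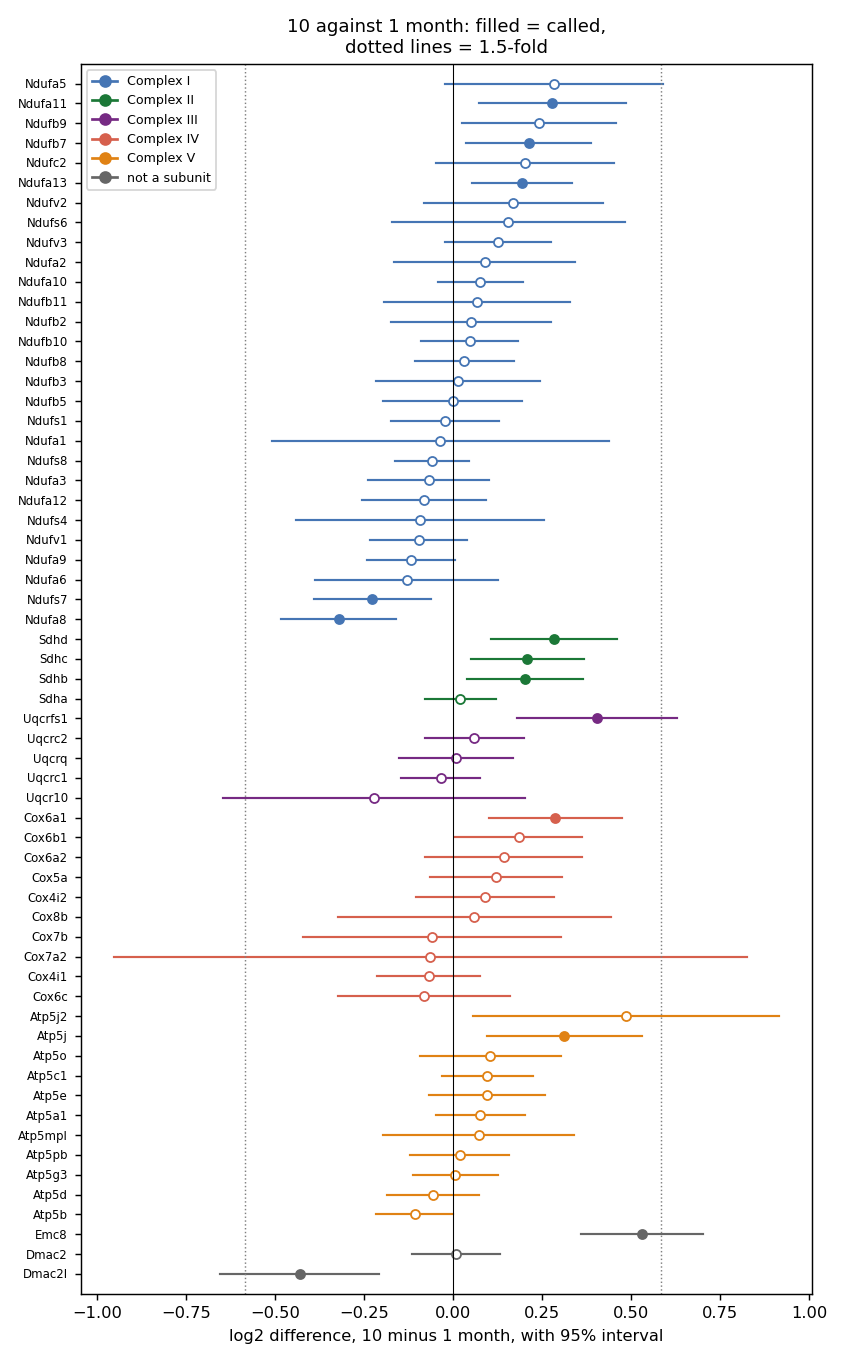
Log2 difference between 10 months and 1 month (horizontal axis) with its 95% interval for each of the 61 tested members (vertical axis, grouped by complex), filled where called at an adjusted p under 0.05, with dotted lines at 1.5-fold. Complex II has 3 of 4 genes filled on the higher side, and Uqcrfs1, at 0.40, is the highest filled subunit.

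Complex III takes electrons from coenzyme Q to cytochrome c. Of its 5 tested genes 1 was called in 10 against 1 month (20.5% of all genes were called higher): Uqcrfs1, which encodes the Rieske iron-sulfur protein, rose. It measured 8.90, 8.47, 8.39 and 8.35 at 1 month, 8.74, 8.83, 8.76 and 8.85 at 2 months, and 8.56, 8.73, 8.90 and 8.47 at 4 months. At 6 months it measured 8.56, 8.86, 8.78 and 8.77 and at 10 months 8.94, 9.0, 8.97 and 8.81. The 10 month values were the highest as a group and overlapped those of 1 month through replicate 1 of 1 month, which stood above the other 3 mice of its age.

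The log2 difference of Uqcrfs1 between 10 and 1 month was 0.40 ± 0.11 (SE, n = 4 per age, limma adjusted p = 0.0054). All 5 probe sets were higher at 10 months, by 0.25 to 0.41. Without the arrays low in Y-linked genes it was 0.35 (limma adjusted p = 0.0948), the only alternative that ended this call. The F test over the 5 ages gave an adjusted p of 0.0481, with an adjusted p over 0.05 without 15 of the 20 arrays in turn and up to 0.123 (without 1 month replicate 4). The core protein genes did not pass the test in any comparison. Uqcrc1 differed by -0.03 (95% interval -0.15 to 0.08) and Uqcrc2 by 0.06 (-0.08 to 0.20) between 10 and 1 month.

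Complex IV, cytochrome c oxidase, has nuclear subunits that exist in general and in tissue-specific forms. Of its 10 tested genes 1 was called in 10 against 1 month (41.3% of all genes were), Cox6a1, the general form of subunit 6a. Cox6a1 measured 11.18, 11.01, 11.04 and 10.72 at 1 month and 11.47, 11.22, 11.21 and 11.20 at 10 months. The groups did not overlap, with replicate 4 of 1 month low and replicate 1 of 10 months high. The log2 difference was 0.29 ± 0.09 (SE, n = 4 per age, limma adjusted p = 0.0144), and it was 0.20 without 1 month replicate 4 (0.0635), 0.22 without 10 months replicate 1 (0.0598) and 0.29 with only the 8 arrays of both ages (0.0516). Cox6b1, which bridges the monomers of the complex IV dimer, rose by 0.27 ± 0.08 at 6 months (limma adjusted p = 0.0350, n = 4 per age), with overlapping groups.

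The other paired forms did not pass the test. Cox4i1, the general form of subunit 4, measured 10.31, 10.18, 10.01 and 9.97 at 1 month and 10.04, 10.08, 10.14 and 9.93 at 10 months, and its difference was -0.07 (95% interval -0.21 to 0.08). Cox4i2, the form known from lung and low oxygen, differed by 0.09 (-0.10 to 0.28). The muscle forms Cox6a2 (0.14, interval -0.08 to 0.36) and Cox8b (0.06, -0.32 to 0.44) lay between 6.18 and 6.79 and between 6.27 and 7.22 in all arrays. Cox5a, a subunit on the matrix side, differed by 0.12 (-0.06 to 0.31) and Cox7b by -0.06 (-0.42 to 0.30). Of the 2 Cox7b probe sets, 1 was bright enough to test. Taken alone it was called higher than at 1 month at both 4 and 10 months, while the other was lower. In 10 against 1 month 20.9% of all single probe sets were called. Cox7a2 had the widest interval, -0.95 to 0.83 around -0.06, with 5.17 in replicate 4 of 4 months and 5.81 in replicate 3 of 10 months against 6.79 to 7.75 in the others. All 3 of its probe sets were higher at 10 months than at 1 month, by 0.01 to 0.11. The gene level from the median polish thus had the opposite sign to each of them. The arrays of 4 months replicate 4 (0.9738) and 10 months replicate 3 (0.9746) also had the lowest mean correlations to the other arrays. In the same order, they held the highest levels of Cox6a2 (6.76 and 6.79) and Cox8b (7.06 and 7.22). Their means of the muscle genes were the highest as well (5.72 and 5.62). The part of this in the complex IV values was not tested.

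Complex V couples the return of protons to the making of ATP. Among its 11 tested genes different members were called at different ages. Atp5e, the epsilon subunit of the central stalk, measured 8.03, 8.10, 8.04 and 7.98 at 1 month, 8.32, 8.26, 8.21 and 8.38 at 4 months, and 8.30, 8.26, 8.42 and 8.30 at 6 months. Its values were 8.23, 8.29, 8.31 and 8.07 at 2 months and 8.22, 8.06, 8.34 and 7.91 at 10 months. The arrays of 4 and 6 months all lay above those of 1 month, and those of 10 months spread across both. Atp5e rose by 0.26 ± 0.08 at 4 months (SE, n = 4 per age, limma adjusted p = 0.0317) and by 0.28 ± 0.08 at 6 months (0.0185), and at 10 months it was 0.10 above 1 month (95% interval -0.07 to 0.26). Its 4 month call was lost without each of the 1 month replicates 1, 3 and 4 and the 4 month replicates 1, 2 and 4, with differences of 0.23 to 0.27 and limma adjusted p of 0.0548 to 0.0763. With the brightest probe set alone the 4 month difference was 0.17 (limma adjusted p = 0.528), and the adjusted p of the F test was 0.884. The difference between 6 and 10 months did not pass the test (-0.18 ± 0.08, limma adjusted p = 0.104).

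Atp5pb, subunit b of the peripheral stalk, was called at 2 months only, where its 4 arrays measured 8.30, 8.36, 8.26 and 8.54, against 8.13, 8.08, 8.10 and 8.18 at 1 month. The groups did not overlap, and the difference was 0.24 ± 0.07 (SE, n = 4 per age, limma adjusted p = 0.0293). All 5 probe sets were higher at 2 months, by 0.05 to 0.21, so each gave less than the value of the gene. Over the 5 ages the adjusted p of limma's F test was 0.240 with the mean of the probe sets and 0.696 with the brightest. All arrays of 2 months are low in Y-linked genes and all of 1 month are high, so age and this difference cannot be told apart here. At 10 months Atp5pb measured 8.25, 8.23, 8.08 and 8.01, and the difference from 1 month was 0.02 (95% interval -0.12 to 0.16). Atp5j, coupling factor 6 of the stalk, measured 7.10, 7.44, 7.49 and 7.35 at 1 month and 7.67, 7.66, 7.66 and 7.63 at 10 months. The 10 month arrays were tightly grouped above all of 1 month, where replicate 1 was low. The rise was 0.31 ± 0.10 (limma adjusted p = 0.0216, n = 4 per age) and 0.23 without that replicate (0.0908), 0.33 with the brightest probe set (0.0705) and 0.31 without the arrays low in Y-linked genes (0.103). The catalytic beta subunit gene Atp5b differed by -0.11 ± 0.05, with an adjusted p of 0.101 in limma. Atp5j2 had the highest estimate of all subunits, 0.49 ± 0.21 from 1 probe set, and did not pass the test (limma adjusted p = 0.0651), although its groups of 10 months and 1 month did not overlap.

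**Figure D4:**
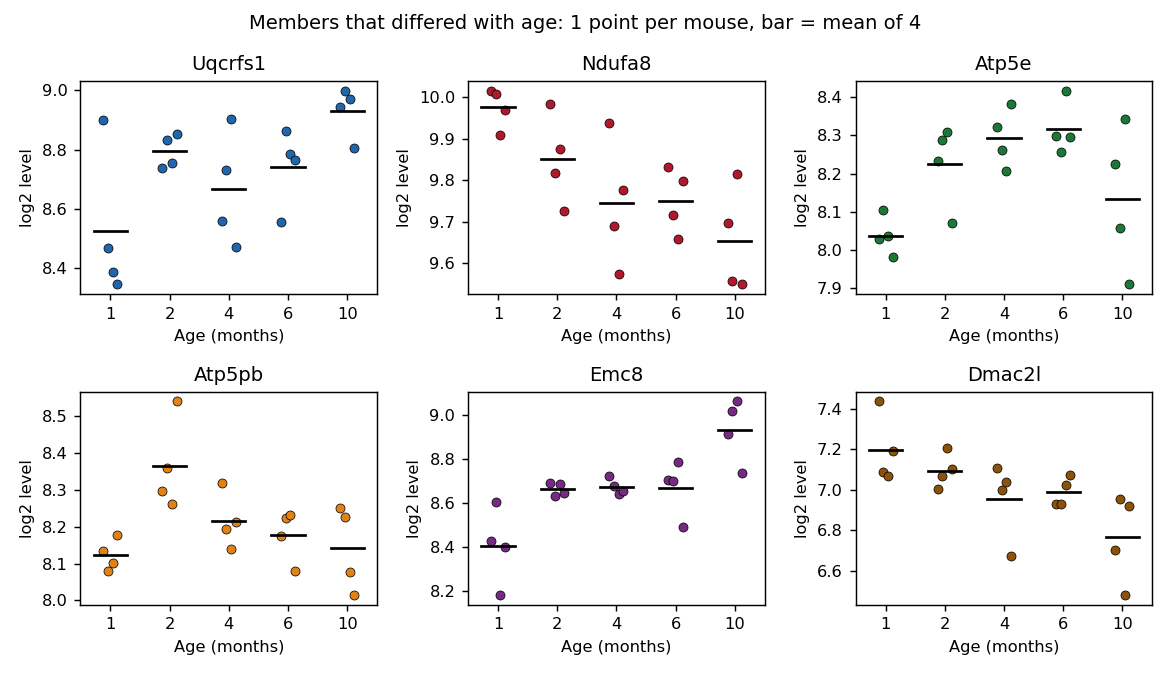
Log2 level (vertical axis) against age in months (horizontal axis) of the 6 members that passed the F test, 1 point per mouse and a bar at the mean of 4. Ndufa8 and Dmac2l have their lowest means at 10 months, Uqcrfs1 and Emc8 their highest, Atp5e is highest at 4 and 6 months, and Atp5pb at 2 months.

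At the level of exons, the same fit was run on each probe set, a step added after seeing the data. Of 348 member probe sets bright enough to test, 7 passed limma's F test over the ages (2.01%, against 14.1% of all named probe sets), and 20 were called in 10 against 1 month (5.75%, against 20.9%). The Atp5pb probe sets differed among themselves, 3 higher and 2 lower at 10 months than at 1 month, and 1 of them was called lower. It measured 6.11, 6.32, 5.78 and 6.17 at 10 months and 6.55 to 7.32 in the other 16 arrays, with no overlap. Its log2 difference between 10 and 1 month was -0.95 ± 0.15 (SE, n = 4 per age, limma adjusted p = 0.000279). The 4 other Atp5pb probe sets gave 0.27, 0.02, -0.24 and 0.14, and the gene's own difference was 0.02. This probe set was singled out after its values were seen. Of the 7 that passed the F test, 3 belonged to Emc8 and 1 each to Atp5pb, Atp5c1, Dmac2 and Atp5e.

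The 3 genes that met the rule only through an old symbol held 2 of the 6 F-test calls. Emc8, a subunit of the endoplasmic reticulum membrane protein complex, was once named for its place beside Cox4i1, and it neighbours that gene in RefSeq. It measured 8.43, 8.60, 8.18 and 8.40 at 1 month, 8.72, 8.68, 8.64 and 8.65 at 4 months, and 8.92, 9.02, 9.06 and 8.74 at 10 months. It measured 8.69, 8.63, 8.69 and 8.64 at 2 months and 8.71, 8.70, 8.79 and 8.49 at 6 months. The groups of 1, 4 and 10 months did not overlap one another, whereas that of 2 months overlapped 4 months and that of 6 months overlapped all 4 other ages. Emc8 rose by 0.27 ± 0.08 from 1 to 4 months (SE, n = 4 per age, limma adjusted p = 0.0308), by 0.26 ± 0.08 from 4 to 10 months (0.0293) and by 0.53 ± 0.08 from 1 to 10 months (4.33e-05), while its neighbour Cox4i1 differed by -0.07 from 1 to 10 months. The steps from 1 to 4 and from 4 to 10 months lost their calls with only the 8 arrays of both ages (limma adjusted p = 0.0859 and 0.0713), the first also with array weights (0.19, 0.0671), and both without several single arrays. For the first step these were 1 month replicates 1, 3 and 4 and 4 months replicates 1, 2 and 3 (limma adjusted p up to 0.109), and for the later step 4 months replicates 2 and 3 and 10 months replicates 1, 2 and 3 (up to 0.0888). Without the arrays low in Y-linked genes the later step was 0.15 (limma adjusted p = 0.384). The difference from 1 to 10 months was called in all alternatives run.

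Dmac2l, a distal membrane arm assembly factor-like gene, measured 7.44, 7.09, 7.07 and 7.19 at 1 month and 6.70, 6.96, 6.48 and 6.92 at 10 months. The groups did not overlap. It fell by 0.43 ± 0.11 on the log2 scale (SE, n = 4 per age, limma adjusted p = 0.0032), but its brightest probe set alone gave 0.18 in the other direction (limma adjusted p = 0.330). Dmac2, an assembly factor of the complex I membrane arm, differed by 0.01 (95% interval -0.12 to 0.13). In 10 against 1 month the groups did not overlap for 8 of the 61 members, 5 higher and 3 lower, against 35.9% of all genes. Without the 3 non-subunits, 11 of 58 members were called in that comparison (41.3% of all genes), 9 higher (20.5%) and 2 lower (20.7%).

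Genes that build and supply the chain were described from lists in the same fit. Of 12 tested complex I assembly factors, 9 fell and 1 rose in 10 against 1 month (20.7% and 20.5% of all genes), with a median of -0.20 against 0.04 over all genes. Ndufaf1 fell by 0.46 ± 0.07 (limma adjusted p = 4.76e-05), Ecsit by 0.50 ± 0.06 (5.49e-06) and Tmem186 by 0.41 ± 0.07, while Ndufaf4 rose by 0.22 ± 0.08. Ecsit (-0.27) and Tmem186 (-0.35) had fallen by 4 months, and Timmdc1 (-0.35) and Ndufaf1 (-0.31) fell from 4 to 10 months. Beside them, the subunits of complex I had a median of 0.04.

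Among 5 complex III assembly genes 2 fell and 2 rose in 10 against 1 month (20.7% and 20.5% of all genes). Bcs1l, the ATPase that inserts the Rieske protein into complex III, had the largest difference of the list, -0.92 ± 0.08 (SE, n = 4 per age, limma adjusted p = 1.3e-07), of which -0.82 came between 4 and 10 months. Its substrate gene Uqcrfs1 had risen by 0.40 in the same comparison. Uqcc3 fell by 0.66 ± 0.08 (1.86e-06). Of 19 complex IV assembly genes 6 fell and 1 rose (20.7% and 20.5% of all genes), with a median of -0.06. Cox18 (-0.32), Cox19 (-0.35), Cox14 (-0.32) and the translational activator Taco1 (-0.23) were among those that fell. Of 5 complex V assembly genes 1 fell (20.7% of all genes), Fmc1 (-0.42 ± 0.11), and the 2 complex II assembly genes had a median of 0.00.

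Of 20 regulators of mitochondrial biogenesis 8 fell and 2 rose in 10 against 1 month (20.7% and 20.5% of all genes), with a median of -0.11. Esrrb, an orphan nuclear receptor, rose by 1.43 ± 0.08 (SE, n = 4 per age, limma adjusted p = 7.31e-10), of which 1.19 came by 4 months. The coactivators Ppargc1a (-0.46 ± 0.09) and Pprc1 (-0.53 ± 0.09) fell. Tfb1m, which methylates mitochondrial ribosomal RNA, fell by 0.80 ± 0.12 and Polg2, the accessory subunit of the mitochondrial DNA polymerase, by 0.49 ± 0.10. Tfam, which packages mitochondrial DNA, rose from 4 to 10 months by 0.30 ± 0.08.

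The counts for carriers, pores, import and ribosome genes are for 10 against 1 month, in which 20.5% of all genes were called higher and 20.7% lower. Of 12 genes of coenzyme Q and the mobile carriers 2 rose and 1 fell, with Coq10b, a coenzyme Q binding protein, at 1.02 ± 0.17 and Coq6, a hydroxylase of coenzyme Q synthesis, at -0.38 ± 0.06. Of 9 ADP/ATP carriers, uncoupling proteins and pores 3 rose and 1 fell, with the uncoupling protein gene Ucp2 at 0.75 ± 0.15 and Slc25a14 at -0.30 ± 0.09. Of 14 import genes 3 rose and 3 fell, among the latter Timm44 (-0.38 ± 0.06), Timm50 (-0.17 ± 0.05) and Dnajc19 (-0.77 ± 0.18). Of 68 mitochondrial ribosome genes 7 rose and 19 fell, with a median of -0.01, and Mrps25 (-0.53 ± 0.07) and Mrps17 (-0.53 ± 0.06) among those that fell. Of 13 cytosolic ribosome genes, listed for comparison, 4 rose and 3 fell.

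**Figure D5:**
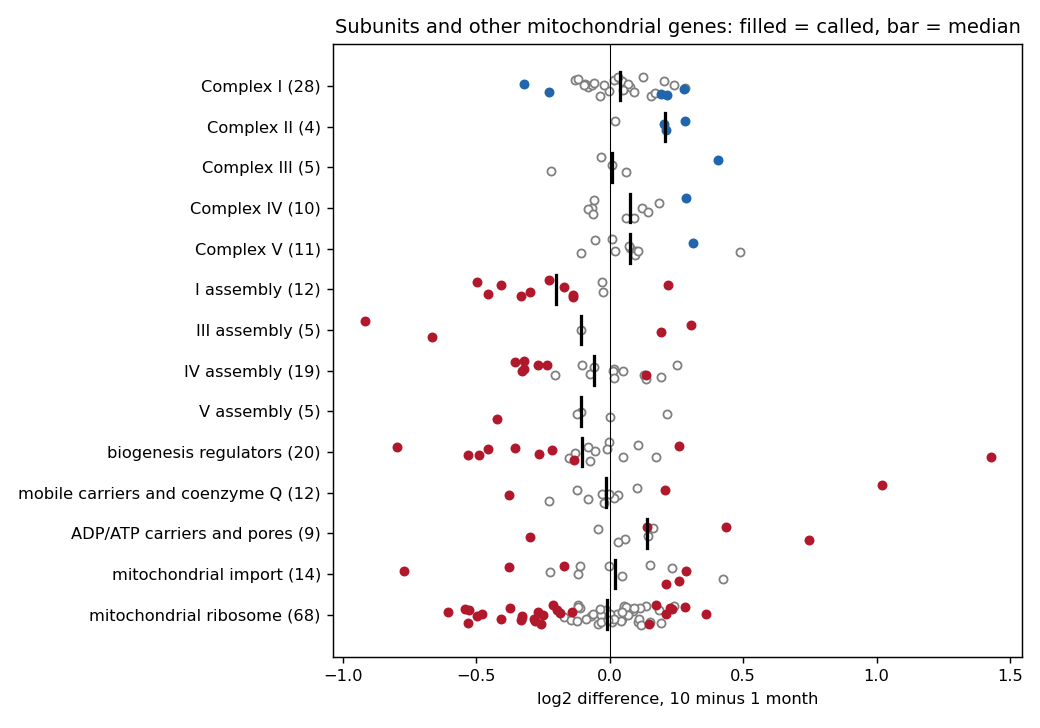
Log2 difference between 10 months and 1 month (horizontal axis) for the tested subunits by complex and for lists of other mitochondrial genes (vertical axis, number tested in brackets), filled where called at an adjusted p under 0.05, with a bar at the median. Complex I subunits centre on 0.04 and complex I assembly factors on -0.20, and Bcs1l (-0.92) and Esrrb (1.43) are the ends of the plot.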

How the data were processed

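The deposited values are log2 intensities of exon-level probe sets that the authors made with RMA, per the submitters' processing notes, which corrects background, brings arrays to a common distribution and summarises probes. A change shared by all genes would therefore be lost. The RMA version is not given in the sources used here. There were 194293 probe sets on 20 arrays, of which 179496 had 1 symbol in the platform annotation, 1328 had several and were left out, and 13469 stayed unnamed. Symbols were updated through RefSeq (GRCm38.p6): 2020 changed, and 15744 of 15800 are current. For Atp5j and Cox7a2l, 3 probe sets shared with another gene were left out.

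Levels per gene came from a median polish over its probe sets, and genes in the lowest 25% of mean level were not tested. The tests were two-sided and used limma 3.58.1 (R 4.3.3; lmFit, eBayes), with 1 mean per age fitted to all 20 arrays at once and 15 residual degrees of freedom. P-values were adjusted by Benjamini-Hochberg over the 11850 genes in each of the 8 comparisons and the F test, with a threshold of 0.05. Replicates are separate mice, and their number limits the precision. Gene lists were described by counts and medians only.

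The members and lists were chosen with earlier results of these data known. Members named are called members whose groups of 4 do not overlap in 4 against 1, 10 against 4 or 10 against 1 month, plus a list of isoform and core subunit genes. For each pathway list they are up to 3 called genes with the largest change in 10 against 4 and in 4 against 1 month. Other genes are named after their values were seen. Alternatives changed the summary of probe sets, the filter, the normalization, array weights, the eBayes settings, the replicate block and the arrays used.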

Additional observations from a re-analysis of the deposited data

Results flagged for a closer look

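In 30 sets of values over 5 ages, 150 groups of 4 mice were checked for a mouse whose gap to the nearest other was large against the range of its group, and 10 were found, where chance gives about 1 in 20. In complex I, Ndufs7 measured 9.78 in 2 months replicate 4 (10.01 to 10.03 in the other 3 mice) and Ndufs1 measured 9.86 in 1 month replicate 1 (9.75 to 9.76). The mean of the complex I genes, relative to their 1 month mean, was 0.14 in 10 months replicate 1 and -0.01 to 0.01 in the other 3. That array also had the highest mean of pigment epithelium genes, 8.32, and the part of this in the result was not tested.

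In complex IV, Cox7a2 measured 5.17 in 4 months replicate 4 (7.31 to 7.58 in the other 3), the array with the lowest correlation to the others. That value is a median polish over 3 probe sets, whose own differences between 4 and 1 month were -0.29 to 0.05. Cox6a1 measured 11.47 in 10 months replicate 1 (11.20 to 11.22), Cox4i1 9.98 in 2 months replicate 4 (10.07 to 10.09) and Cox6a2 6.18 in 6 months replicate 2 (6.40 to 6.43). Cox5a measured 10.08 in 1 month replicate 2 (9.89 to 9.91) and 9.82 in 10 months replicate 4 (10.12 to 10.17). In complex V, Atp5b measured 12.57 in 2 months replicate 3 (12.44 to 12.45).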

How the results depend on the processing

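The members called over the 5 ages were 6 in the main setting (38.4% of all genes) and 2 with the brightest probe set per gene (20.4%). They were 3 with no filter on dim genes (26.4%) and 10 with array weights (46.9%). Without the arrays low in Y-linked genes (an alternative chosen after seeing the data), and so without the 2 month age, 3 were called (27.9%). For 4 against 1 month, 3 became 1 with the brightest probe set, 9 with array weights and 1 with only the 8 arrays of those ages. For 10 against 4 months, 1 (21.7% of all genes) became 3 with the mean of the probe sets (19.2%) and 2 with array weights (25.1%). It became 0 with only the 8 arrays (9.13%) and without the arrays low in Y-linked genes (14.7%). Without the 3 non-subunits (also chosen after seeing the data) it was 0 as well (21.7%). For 10 against 1 month, 13 (41.3% of all genes) became 6 with the brightest probe set (27.8%) and 8 with only the 8 arrays (36.1%). Without the arrays low in Y-linked genes, 5 were called (31.1%). The causes were not tested, and the fits on 8 arrays and without the arrays low in Y-linked genes have fewer samples. Over the main setting and every alternative, the share of all genes called ran from 20.4% to 50.2% in the F test. It ran from 7.09% to 25.5% for 4 against 1, 9.07% to 31.0% for 10 against 4 and 27.8% to 50.8% for 10 against 1 month.

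With each array left out in turn, the counts ranged from 3 to 8 over the 5 ages (3 without 1 month replicate 2, 3 or 4 or 10 months replicate 3), from 0 to 3 for 4 against 1 month (0 without 1 month replicate 3 or 4 or 4 months replicate 2, and 1 without 1 month replicate 1 or 4 months replicate 3 or 4), from 0 to 2 for 10 against 4 months (0 without 4 months replicate 2 or 10 months replicate 2, and 2 without 4 months replicate 4), and from 7 to 14 for 10 against 1 month (7 without 10 months replicate 1 and 8 without 1 month replicate 4). In these fits 33.5% to 43.3% of all genes were called over the 5 ages and 11.2% to 15.2% for 4 against 1 month. The shares were 17.2% to 22.9% for 10 against 4 months and 36.2% to 39.4% for 10 against 1 month. The median change of the members ranged from 0.00 to 0.06, -0.00 to 0.05 and 0.01 to 0.07 for 4 against 1, 10 against 4 and 10 against 1 month. The Dmac2l difference of 10 against 1 month turned to 0.18 with the brightest probe set. Of the 1558 values of single genes under an alternative, 1425 stayed on the same side of the threshold, 117 lost the call, 15 gained it, and Dmac2l was the 1 called difference that reversed. A further 98 differences, of 18 genes that did not pass the test in that comparison, changed sign (Cox7a2, for example, from -0.22 to 0.35 for 4 against 1 month without 4 months replicate 4).

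Same-numbered mice of different ages did not deviate together (correlations of -0.57 to 0.56, median -0.03, and 4 of 20 arrays correlated best with their own number). With the replicate number as a block, 3 members were called over the 5 ages (34.5% of all genes). The limits of these data are 4 mice per age, no wild-type retina and 7 members on 1 probe set.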
